A study of Mus musculus with 6 samples.

Results

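Transcript levels were examined for 9 chemokine genes, Ccl3, Ccl4, Ccl5, Ccl6, Ccl9, Cxcl2, Cxcl10, Cxcl12 and Cxcl16, taken by their symbols from a table of 55573 genes. They were measured by RNA sequencing of LSK cells, the bone marrow fraction that lacks lineage markers and carries Sca-1 and c-Kit, in which hematopoietic stem cells and multipotent progenitors are concentrated. Marrow was enriched on c-Kit with magnetic beads and then sorted, and the RNA was amplified before sequencing. The libraries comprise 3 from Etv6 R355X/+ mice and 3 from wild-type mice, all C57BL/6J and 3 months old. R355X is an allele of Etv6, which encodes a repressor of the ETS family of transcription factors, and in the labels the mutant genotype is also written Etv6+/-. The study asked how Etv6 bears on inflammatory genes and progenitor function in mice.

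Chemokines are small secreted proteins that guide leukocytes through G-protein-coupled receptors. The CC and CXC families are named for the spacing of conserved cysteines. In bone marrow, Cxcl12 made by stromal cells holds Cxcr4-bearing stem and progenitor cells in place, and most of the other genes described here are best known from activated or differentiated myeloid and lymphoid cells.

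The mutant libraries held 45.2 M to 92.2 M expected counts (the fractional read counts that RSEM estimates per gene) and the wild-type libraries 47.9 M to 60.8 M, and mutant replicate 1 was the deepest. Values are CPM, counts scaled to library size with TMM factors, as mean ± SD with n = 3 per genotype unless said otherwise. Etv6 itself measured 304.8, 341 and 386 CPM in mutant replicates 1, 2 and 3, against 454, 419 and 400.1 CPM in wild-type replicates 1, 2 and 3. All 3 mutant values lay below the wild-type values, but the gene missed the threshold in the quasi-likelihood test of edgeR (log2 fold change -0.30, SE 0.086, adjusted p = 0.245). The sorting markers Kit (378 ± 23.5 CPM in the mutant and 419 ± 33.04 in wild type) and Ly6a, the gene of Sca-1 (78.2 ± 2.80 CPM in the mutant and 85.8 ± 12.2 CPM in wild type), were present throughout. RNA of mature lineages was present too. The neutrophil gene S100a9 measured 1115 ± 278 CPM in the mutant and 1106 ± 98.4 CPM in wild type.

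Of the 9 chemokine genes, 8 passed the filter on low counts, and Ccl9 alone passed the test over all genes, as lower in the mutant. That compares with 55 of 20646 tested genes in both directions (0.266%), 16 of them lower (0.0775%) and 39 higher (0.189%). The median log2 fold change of the 8 tested chemokine genes was -0.010, with 3 above 0 and 5 below, and that of all tested genes was 0.0019, with 50.6% above 0. An unadjusted p under 0.05 was found for Ccl9 and Ccl6, against 10.6% of all tested genes. The genotypes did not overlap for the same 2 genes, against 16.3% of all tested genes. In the plot of CPM by library these are the panels in which the mutant and wild-type points separate.

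**Figure D1:**
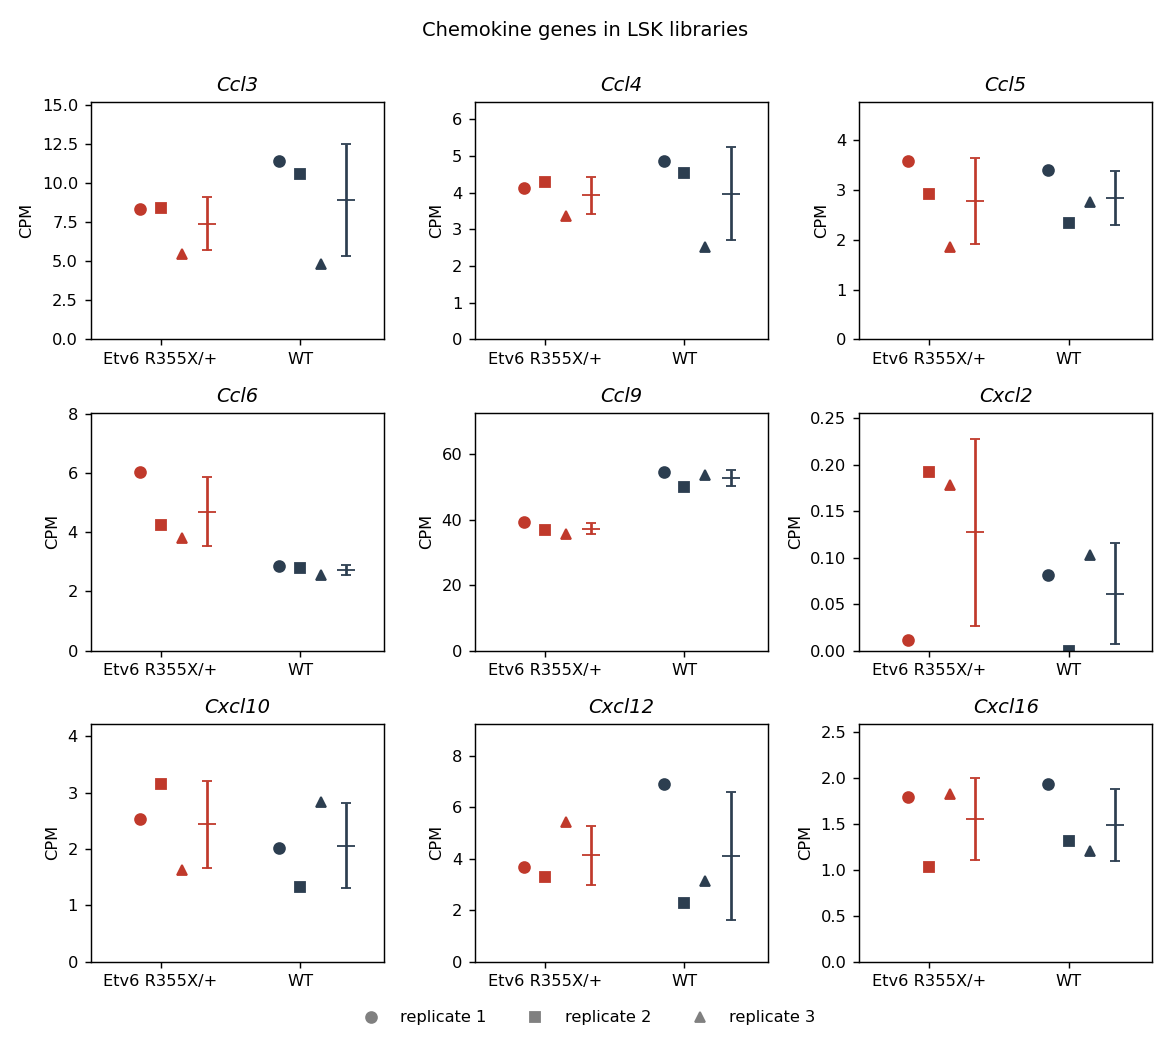
Each panel plots 1 chemokine gene, with CPM on a linear axis from 0, Etv6 R355X/+ libraries in red and wild-type libraries in blue, the marker shape giving the replicate number, and the bar at the right of each group giving mean ± SD (n = 3). Ccl9 lies between 35.7 and 39.3 CPM in the mutant and between 49.9 and 54.4 CPM in wild type, and Ccl6 between 3.81 and 6.02 CPM in the mutant and between 2.55 and 2.87 CPM in wild type, while the groups overlap in the other 7 panels.

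The promoters of Ccl9 and Ccl6 are shown because these neighbouring genes differed between the genotypes in opposite directions, and that of Cxcl10 because it is the textbook target of interferon signalling among the 9 genes. RefSeq promoter windows of 250 bases before and 50 bases after the start were matched for 6 of the 9 genes by symbol, in build GRCm38.p6. The motifs searched on both strands were AGGAAG and CCGGAA for ETS factors, GAAA followed by GAAA after 2 bases of any kind for the interferon-stimulated response element (ISRE), GGANTTTCC for NF-kappaB, TGANTCA for AP-1 and TTGCNNAA for C/EBP. Capitals mark every match to the ETS, ISRE and NF-kappaB motifs, and no 2 capitalised matches overlap in the windows printed.
Ccl9, chr11:83578587-83578886, minus strand: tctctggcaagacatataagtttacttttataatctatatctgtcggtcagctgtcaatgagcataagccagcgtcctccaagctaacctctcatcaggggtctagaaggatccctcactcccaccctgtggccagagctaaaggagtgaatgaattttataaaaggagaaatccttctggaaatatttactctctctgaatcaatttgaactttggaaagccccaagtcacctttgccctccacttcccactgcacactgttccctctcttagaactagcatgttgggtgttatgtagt
Ccl6, chr11:83593038-83593337, minus strand: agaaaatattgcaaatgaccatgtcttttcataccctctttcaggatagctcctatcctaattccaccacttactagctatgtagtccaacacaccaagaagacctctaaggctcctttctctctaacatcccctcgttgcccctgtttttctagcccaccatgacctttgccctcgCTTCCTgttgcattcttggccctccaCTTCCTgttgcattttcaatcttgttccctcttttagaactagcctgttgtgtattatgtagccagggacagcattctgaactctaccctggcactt
Cxcl10, chr5:92348840-92349139, minus strand: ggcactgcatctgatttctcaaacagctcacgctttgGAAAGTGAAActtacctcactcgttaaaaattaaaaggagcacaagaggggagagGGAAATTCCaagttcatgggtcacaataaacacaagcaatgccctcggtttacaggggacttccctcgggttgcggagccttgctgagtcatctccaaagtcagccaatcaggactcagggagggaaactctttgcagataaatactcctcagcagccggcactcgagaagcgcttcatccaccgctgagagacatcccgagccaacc
AGGAAG was found at 2 positions of the Ccl6 window, both on the opposite strand, with their left ends 73 and 47 bases before the start. It was found at 0 positions of the Ccl9 window, where the only match was TGANTCA, 53 bases before the start (7.81% of windows hold it). AGGAAG is held by 35.4% of 32851 windows of this length and CCGGAA by 14.9%. The Cxcl10 window holds 1 ISRE match, 213 bases before the start, 1 GGANTTTCC match, 158 bases before it, and 1 TGANTCA match, 74 bases before it. ISRE matches are held by 3.44% of all windows and GGANTTTCC by 1.25%, and TTGCNNAA, held by 10.8%, was in none of the 6 windows. Of the other windows matched, that of Cxcl2 holds 2 AGGAAG matches and 1 GGANTTTCC match, and those of Ccl3 and Cxcl12 hold none of the motifs. A match describes letters and was not tested for binding.

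Ccl9, also called MIP-1 gamma, attracts myeloid cells through Ccr1 and was the most abundant of the 9 genes. It measured 39.3, 36.9 and 35.7 CPM in mutant replicates 1, 2 and 3, against 54.4, 49.9 and 53.6 CPM in wild-type replicates 1, 2 and 3. Every mutant library lay below every wild-type library, and the spread within each genotype was small beside the gap (37.3 ± 1.82 CPM in the mutant and 52.7 ± 2.44 CPM in wild type). Ccl9 fell to 0.709 times the wild-type level, with an approximate 95% interval from 0.644 to 0.780 (log2 fold change -0.50, SE 0.071). After Benjamini-Hochberg adjustment its p in the quasi-likelihood test of edgeR was 0.0190, where its unadjusted p ranked 28 among 20646 genes. DESeq2 (adjusted p = 1.29e-06) and limma-voom (adjusted p = 0.0365) also called it, and they called 1.77% and 0.199% of the genes they tested. An exact permutation test, two-sided, gave p = 0.1, the lowest value 3 against 3 libraries can give. With 1 library left out at a time the log2 fold change stayed between -0.54 and -0.47, but the call ended without mutant replicate 2 (adjusted p = 0.117), mutant replicate 3 (adjusted p = 0.0551), wild-type replicate 1 (adjusted p = 0.105) and wild-type replicate 2 (adjusted p = 0.0808) in edgeR. It held without mutant replicate 1 (adjusted p = 0.0376) and without wild-type replicate 3 (adjusted p = 0.0499). In bulk RNA, fewer cells of a type and less of the transcript per cell cannot be told apart.

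Neutrophil markers, a lineage in which myeloid chemokines are made, overlapped between the genotypes, with 4 of 7 above 0 and a median log2 fold change of 0.011. Their part in the Ccl9 result was not tested. The genes whose log2 CPM followed Ccl9 most closely over the 6 libraries were Cdyl2 (Pearson r = 0.991) and Xxylt1 (Pearson r = 0.988), given as a description. Among the 12007 genes compared, 139 had r above 0.9 with Ccl9, and the genotype difference is part of each of these values.

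Ccl6, another CC chemokine of myeloid cells, differed in the opposite direction. It measured 6.02, 4.24 and 3.81 CPM in mutant replicates 1, 2 and 3, against 2.87, 2.78 and 2.55 CPM in wild-type replicates 1, 2 and 3. The mutant libraries all lay above the wild-type libraries, and mutant replicate 1 stood highest. The fitted ratio of mutant to wild type was 1.72, with an approximate 95% interval from 1.30 to 2.28 (log2 fold change 0.78, SE 0.21). Its unadjusted p of 0.00319 in edgeR ranked 310 among all tested genes and did not pass after Benjamini-Hochberg adjustment (adjusted p = 0.212). DESeq2 called it (adjusted p = 0.0336) and limma-voom did not (adjusted p = 0.222). Without mutant replicate 1 the log2 fold change was 0.56 (adjusted p = 0.492), and 2 mutant libraries still lay above all 3 wild-type libraries.

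Most macrophage and monocyte markers were, like Ccl6, highest in mutant replicate 1. Of the 10 markers tested, 7 were higher at an unadjusted p under 0.05 (5.83% of all tested genes) and 1 was lower (4.8% of all tested genes), with edgeR adjusted p from 0.168 (C1qa) to 0.832 (Csf1r). The complement gene C1qa, made by macrophages, measured 6.35, 4.14 and 3.90 CPM in mutant replicates 1, 2 and 3, against 2.59, 2.68 and 2.36 CPM in wild-type replicates 1, 2 and 3, with the highest value in the same library as Ccl6. Cd5l, a macrophage gene, measured 4.57 ± 1.56 CPM in the mutant and 2.25 ± 0.185 CPM in wild type. The summed level of all 10 markers overlapped, from 591 to 868 CPM in the mutant and from 629 to 743 CPM in wild type, and Lyz2 and Ly6c2 make up most of it. Ly6c2 was the lower marker, at 95.2 ± 15.6 CPM in the mutant and 137 ± 39.0 CPM in wild type. Csf1r also had a negative log2 fold change (-0.14). Without Lyz2 and Ly6c2 the sum was 62.7 to 98.7 CPM in the mutant and 54.7 to 62.6 CPM in wild type. That split was made after the values were seen and takes out the lower marker. The groups then nearly touched, at mutant replicate 3 (62.7 CPM) and wild-type replicate 1 (62.6 CPM). None of the 10 was at 0, and their part in the Ccl6 difference was not tested. Mast cell and basophil markers summed to between 38.7 and 59.4 CPM in the mutant and between 31.9 and 35.3 CPM in wild type. That sum was again highest in mutant replicate 1. Of these 5 markers 1 passed as higher, Fcer1a, the high-affinity IgE receptor gene (edgeR adjusted p = 0.00522), against 0.189% of all tested genes. B cell markers summed to between 84.7 and 174 CPM in the mutant and between 63.8 and 80.8 CPM in wild type, without overlap, with edgeR adjusted p from 0.168 (Pax5) to 0.776 (Ms4a1) for its 5 genes. The sums of B cell, neutrophil, and T and natural killer markers were highest in mutant replicate 1 too (174, 3408.5 and 149 CPM). The part of these markers in the Ccl6 difference was not tested either. Rhbdf2 (Pearson r = 0.997) and Drc7 (Pearson r = 0.998) followed Ccl6 most closely over the 6 libraries, and 372 genes had r above 0.9.

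**Figure D2:**
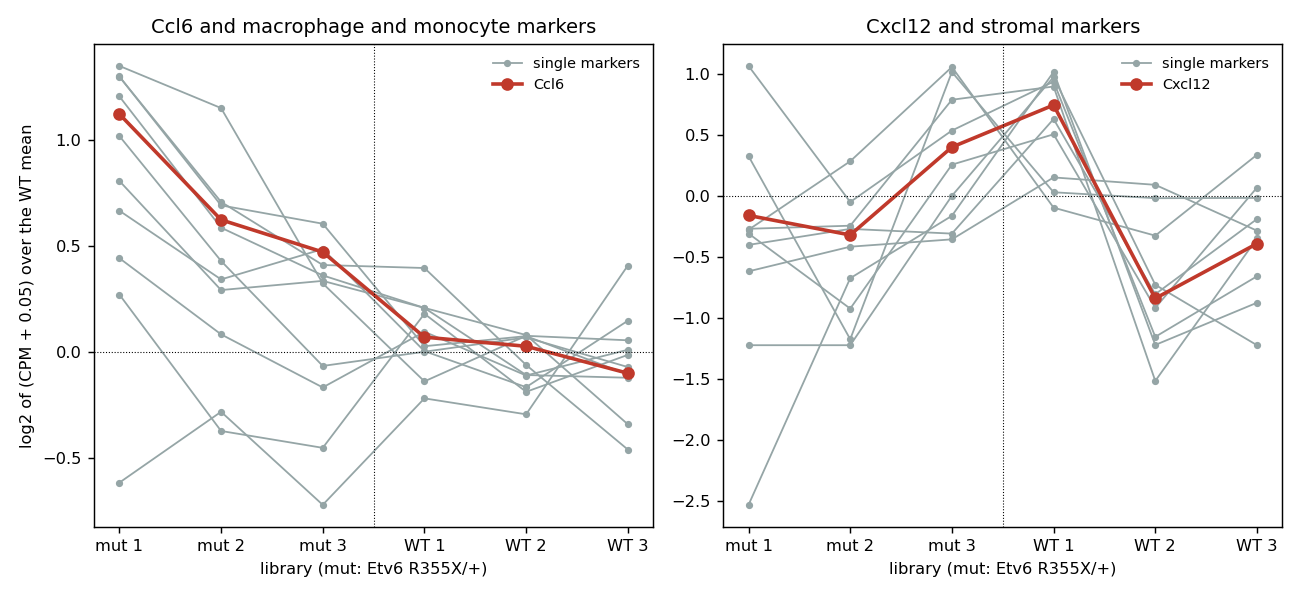
Each panel plots the log2 of CPM + 0.05 over the wild-type mean for each of the 6 libraries, Etv6 R355X/+ (mut) left of the dotted line and wild type (WT) right of it, with a chemokine gene in red and single markers in grey. The lines only join the values of 1 gene, since replicates have no order; Ccl6 and most macrophage and monocyte markers are highest in mutant replicate 1, and Cxcl12 and most stromal markers are high in wild-type replicate 1.

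Ccl9 and Ccl6 lie next to each other on chromosome 11 and are transcribed in the same direction. In mm10, Ccl9 (ENSMUSG00000019122.8) runs from 83572919 to 83578636 and Ccl6 (ENSMUSG00000018927.3) from 83587882 to 83593087, both on the minus strand. Per kilobase of annotated exon, the ratio of Ccl9 to Ccl6 was 3.85, 5.13 and 5.52 in mutant replicates 1, 2 and 3, against 11.2, 10.6 and 12.4 in wild-type replicates 1, 2 and 3. The ratio was lower in every mutant library, which follows from the separation of both genes and is given as a description. This ratio is taken within a library and does not depend on library scaling.

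Ccl9 was the only gene of the cluster that passed the test. From Ccl5 to Ccl4 the annotation holds 7 genes, both ends included, of which 6 passed the filter. Ccl5 lies on the Ccl9 side, with its left end 47.1 kb from that of Ccl9, and had a log2 fold change of -0.022 (SE 0.26). Ccl3 and Ccl4 lie on the Ccl6 side, at -0.27 (SE 0.29) and -0.019 (SE 0.24). Rpl9-ps1, a gene in the cluster that is no chemokine, measured 0.830 ± 0.204 CPM in the mutant and 0.547 ± 0.210 CPM in wild type. The noncoding gene E230016K23Rik overlaps Ccl6 on the opposite strand without sharing exons and had 32 expected counts in all 6 libraries together.

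**Figure D3:**
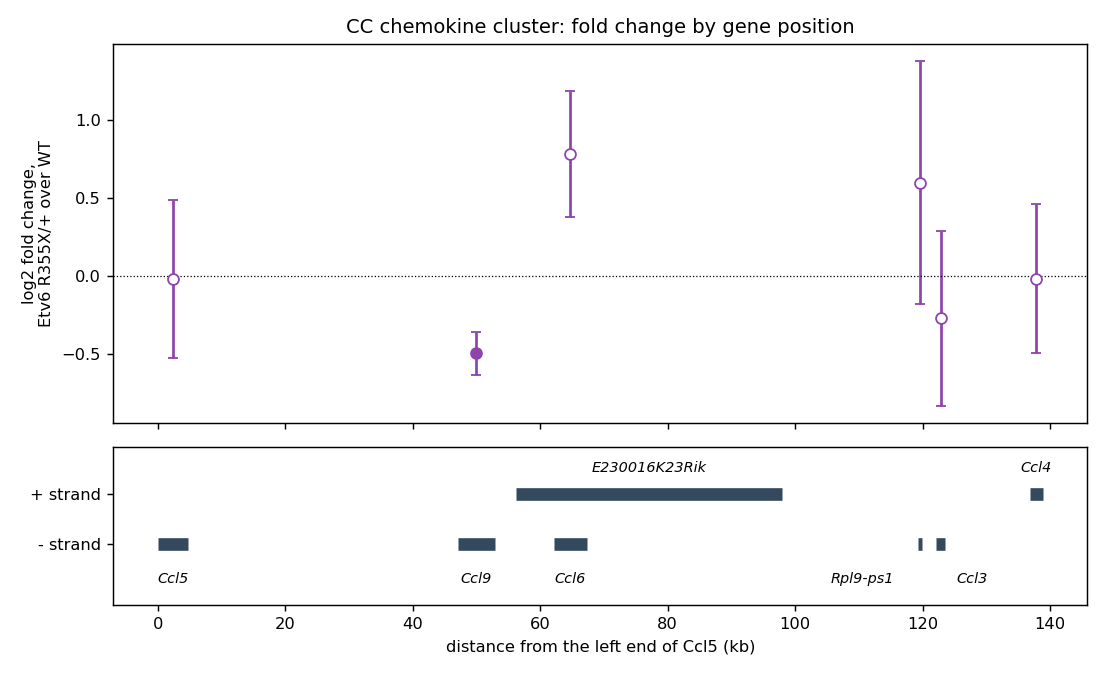
The upper panel plots the log2 fold change of Etv6 R355X/+ over wild type for each tested gene of the CC cluster on chromosome 11 against distance from the left end of Ccl5 in kb, with bars for approximate 95% intervals, and the lower panel draws all 7 genes to scale on their strands. Ccl9 (filled, adjusted p under 0.05) lies below 0 and its neighbour Ccl6 (open, not passed) above it, while the intervals of Ccl5, Rpl9-ps1, Ccl3 and Ccl4 include 0.

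Ccl3 and Ccl4, the MIP-1 alpha and MIP-1 beta genes, encode inflammatory chemokines that activated myeloid and lymphoid cells secrete, and Ccl3 binds Ccr1. Ccl3 measured 8.36, 8.40 and 5.46 CPM in mutant replicates 1, 2 and 3, against 11.4, 10.6 and 4.84 CPM in wild-type replicates 1, 2 and 3. Ccl4 measured 4.12, 4.30 and 3.36 CPM in the mutant, against 4.86, 4.55 and 2.52 CPM in wild type, in the same order of replicates. For both genes the genotypes overlapped, and the lowest library of each genotype was replicate 3. The level of Ccl3 spanned 2.36-fold between its highest and lowest library, more than its difference between genotype means (7.41 ± 1.69 CPM in the mutant and 8.96 ± 3.59 CPM in wild type; edgeR adjusted p = 0.789). With 1 library left out at a time its log2 fold change ran from -0.57 (without wild-type replicate 3, edgeR adjusted p = 0.367) to -0.059 (without wild-type replicate 1, adjusted p = 0.976), against -0.27 with all 6. It was -0.099 without mutant replicate 3 and -0.135 without wild-type replicate 2. The ratio of Ccl3 to Ccl4 counts stayed between 1.62 and 2.03 in the mutant and between 1.92 and 2.35 in wild type, a narrower span than that of either gene's level in wild type. Cdc42bpb followed Ccl3 most closely over the 6 libraries (Pearson r = 0.996), then Mettl15 (Pearson r = 0.991), and for Ccl4 the closest were Tpst2 (Pearson r = 0.980) and Mtmr3 (Pearson r = 0.979).

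Ccl5, or RANTES, is a ligand of Ccr1 made by T and natural killer cells among others. It measured 3.58, 2.92 and 1.85 CPM in mutant replicates 1, 2 and 3, against 3.41, 2.33 and 2.77 CPM in wild-type replicates 1, 2 and 3. The mutant libraries held both the highest and the lowest value, and the fitted ratio was 0.985 with an approximate 95% interval from 0.692 to 1.40 (edgeR adjusted p = 0.989). T and natural killer markers summed to between 111 and 149 CPM in the mutant and between 95.2 and 126 CPM in wild type, of which Nkg7 gave most. Of these 8 markers 7 were above 0 (median log2 fold change 0.50). Klrb1c, a natural killer receptor gene, measured 5.18 ± 1.09 CPM in the mutant and 1.46 ± 0.423 CPM in wild type. It alone passed as higher (edgeR adjusted p = 0.0177), 1 of 8 against 0.189% of all tested genes. The part of these 8 markers in the level of Ccl5 was not tested. For Ccl5 the closest genes in pattern were Lyrm7 (Pearson r = 0.982) and the interferon-induced Ifit3 (Pearson r = 0.978), given as a description. Of the 12007 genes compared, 61 had r above 0.9 with Ccl5. The T cell gene Cd3e was near 1 CPM, at 1.10 ± 0.209 CPM in the mutant and 1.39 ± 0.706 CPM in wild type.

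Among the CXC genes, none passed and every pair of groups overlapped. Cxcl10, which interferon gamma induces and which attracts T cells through Cxcr3, measured 2.53, 3.17 and 1.63 CPM in mutant replicates 1, 2 and 3, against 2.02, 1.33 and 2.83 CPM in wild-type replicates 1, 2 and 3. Its fitted ratio was 1.19 with an approximate 95% interval from 0.774 to 1.82 (edgeR adjusted p = 0.835). Its log2 fold change of 0.25 was 0.014 without wild-type replicate 2, 0.022 without mutant replicate 2 and 0.54 without wild-type replicate 3. The related gene Cxcl9 measured 3.80 ± 3.24 CPM in the mutant and 2.02 ± 1.16 CPM in wild type (adjusted p = 0.628). Clec9a, a dendritic cell receptor gene, followed Cxcl10 most closely (Pearson r = 0.991), then Asf1b (Pearson r = 0.979). Among the 12007 genes compared, 59 had r above 0.9 with Cxcl10, so these 2 are given as a description. Cxcl10 shares 133 bases of exon with Art3 on the opposite strand, which had 63.0 expected counts in all 6 libraries together.

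Cxcl12, the ligand of Cxcr4, measured 3.67, 3.28 and 5.44 CPM in mutant replicates 1, 2 and 3, against 6.92, 2.27 and 3.12 CPM in wild-type replicates 1, 2 and 3. Wild type held the highest and the lowest library, a span of 3.04-fold, and the means were 4.13 ± 1.15 CPM in the mutant and 4.10 ± 2.47 CPM in wild type. The estimate moved most with wild-type replicate 1, since without it the log2 fold change was 0.61 (edgeR adjusted p = 0.588) and with it -0.0017. It was -0.29 without wild-type replicate 2 and -0.24 without mutant replicate 3, and Cxcl12 passed in none of these fits. Stromal markers were low, and most were highest in the same library as Cxcl12. Of 9 such markers, 8 averaged under 1 CPM and none was at 0 in all libraries, but Col3a1, a fibroblast collagen gene, was at 0 in mutant replicates 1 and 2 and wild-type replicate 3. The sum of those 8 was 1.30, 1.11 and 2.38 CPM in mutant replicates 1, 2 and 3, against 3.20, 0.758 and 1.48 CPM in wild-type replicates 1, 2 and 3, with the same highest and lowest library as Cxcl12. The ninth, Pdgfrb, measured 22.6 ± 2.11 CPM in the mutant and 31.0 ± 4.85 CPM in wild type. With Pdgfrb included, the 9 markers summed to 21.5, 24.4 and 26.6 CPM in mutant replicates 1, 2 and 3. In wild-type replicates 1, 2 and 3 that sum was 37.7, 33.8 and 27.0 CPM. Wild-type replicate 1 stayed the highest, but the lowest was then mutant replicate 1. The split by level rests on the values themselves. The part of the stromal markers in the level of Cxcl12 was not tested. Endothelial markers, of another Cxcl12-producing cell type, summed to between 91.8 and 98.5 CPM in the mutant and between 82.0 and 96.8 CPM in wild type. Pecam1 gave most of that sum (74.3 ± 3.78 CPM in the mutant and 68.2 ± 5.02 CPM in wild type). Cdh5 measured only 0.269 ± 0.0993 CPM in the mutant and 0.252 ± 0.212 CPM in wild type, and Kdr 0.707 ± 0.0539 and 1.02 ± 0.170 CPM. Tek was higher, at 11.3 ± 0.890 CPM in the mutant and 8.35 ± 0.247 CPM in wild type (edgeR adjusted p = 0.242). Emcn was lower, at 9.13 ± 0.955 CPM in the mutant and 12.4 ± 2.07 CPM in wild type (edgeR adjusted p = 0.335). The sum therefore joins markers that went in opposite directions. The part of the endothelial markers was not tested either. Fam114a1 (Pearson r = 0.997) and Rps6ka6 (Pearson r = 0.984) followed Cxcl12 most closely.

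Cxcl16, made as a membrane protein that Adam10 and Adam17 shed and that binds Cxcr6, measured 1.80, 1.04 and 1.83 CPM in mutant replicates 1, 2 and 3, against 1.94, 1.3105 and 1.21 CPM in wild-type replicates 1, 2 and 3. The highest library was wild type and the lowest mutant (fitted ratio 1.04, approximate 95% interval from 0.694 to 1.57; edgeR adjusted p = 0.969). It shares 552 bases of exon with Zmynd15 on the opposite strand, which had 60.8 expected counts in all, so Cxcl16 counts near that gene cannot be assigned to a strand. The genes closest to Cxcl16 in pattern were Luc7l3 (Pearson r = 0.991) and Atg16l2 (Pearson r = 0.979). Cxcl2, a neutrophil attractant that binds Cxcr2, was at the edge of detection. It had 1, 10 and 8 counts in mutant replicates 1, 2 and 3, against 5, 0 and 5 counts in wild-type replicates 1, 2 and 3. It did not pass the filter. The count of 0 in wild-type replicate 2 allows a level of up to 0.0614 CPM, covering counting error only, and the level of 1 count in mutant replicate 1, the deepest library, was 0.0114 CPM.

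The other CC genes lie in the same cluster of chromosome 11 in mm10, Ccl5 (ENSMUSG00000035042.2) from 83525778 to 83530518 and Ccl3 (ENSMUSG00000000982.5) from 83647844 to 83649355 on the minus strand, and Ccl4 (ENSMUSG00000018930.3) from 83662584 to 83664683 on the plus strand. Cxcl16 (ENSMUSG00000018920.11) lies apart on the same chromosome, from 70453983 to 70459984 on the minus strand. Cxcl2 (ENSMUSG00000058427.10) runs from 90903871 to 90905938 on the plus strand of chromosome 5 and Cxcl10 (ENSMUSG00000034855.13) from 92346638 to 92348889 on its minus strand. Cxcl12 (ENSMUSG00000061353.11) runs from 117168535 to 117181367 on the plus strand of chromosome 6.

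Longer transcripts collect more counts, so levels are compared between genes as CPM per kilobase of annotated exon. Over the 6 libraries Ccl9 averaged 14.8, Ccl3 10.7, Ccl4 5.99, Ccl5 2.93, Ccl6 2.07 and Cxcl10 0.999 CPM per kilobase, followed by Cxcl12 at 0.503, Cxcl16 at 0.503 and Cxcl2 at 0.0456. The ranges of neighbours in this order overlapped for Ccl9 and Ccl3, Ccl3 and Ccl4, Ccl5 and Ccl6, Cxcl10 and Cxcl12, and Cxcl12 and Cxcl16. They were separate for Ccl4 and Ccl5, Ccl6 and Cxcl10, and Cxcl16 and Cxcl2. Within single libraries, Ccl9 exceeded Ccl3 and Ccl3 exceeded Ccl4 in 6 of 6, Ccl5 exceeded Ccl6 in 5 of 6, and Cxcl12 exceeded Cxcl16 in 3 of 6. Exon length here takes in every annotated isoform, and is longest for Cxcl12 (8176 bases). In CPM not divided by length, Ccl9 made up 56.6% to 60.2% of the 9 genes' sum in the mutant and 61.9% to 72.9% in wild type.

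Receptors for these ligands were also present, and 0 of the 18 tested among 23 chemokine receptors passed after adjustment in edgeR, while 3 were higher and 1 lower at an unadjusted p under 0.05 (5.83% and 4.8% of all tested genes). DESeq2 called 1 of them, limma-voom 0, and edgeR without a count filter 2. Their median log2 fold change was 0.30, with 12 of 18 above 0, but the median was 0.042 without mutant replicate 1. It was -0.038 with wild-type replicate 3 left out as well, a setting added after the data were seen. The count filter was applied anew in both settings and passed 21 receptors, so the libraries and the genes changed together. Ccr1, which binds Ccl9, Ccl3 and Ccl5, measured 1.44 ± 0.124 CPM in the mutant and 1.94 ± 0.329 CPM in wild type (adjusted p = 0.570). The Cxcl12 receptor Cxcr4 measured 49.6 ± 4.79 CPM in the mutant and 40.7 ± 4.92 CPM in wild type, with overlapping groups (log2 fold change 0.29, SE 0.099, adjusted p = 0.349). Ccr9, the receptor of Ccl25 found on lymphoid progenitors and plasmacytoid dendritic cells, measured 14.0 ± 3.62 CPM in the mutant and 23.6 ± 5.70 CPM in wild type (adjusted p = 0.222). Ccr7, which guides lymphocytes and dendritic cells to lymph nodes, measured 4.71 ± 1.26 CPM in the mutant and 2.77 ± 1.00 CPM in wild type (adjusted p = 0.397). Xcr1, a marker of conventional dendritic cells, measured 6.64 ± 3.63 CPM in the mutant and 2.96 ± 1.37 CPM in wild type (adjusted p = 0.392). Ccr1 and the receptors plotted with it are named because they bind some of the 9 ligands.

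**Figure D4:**
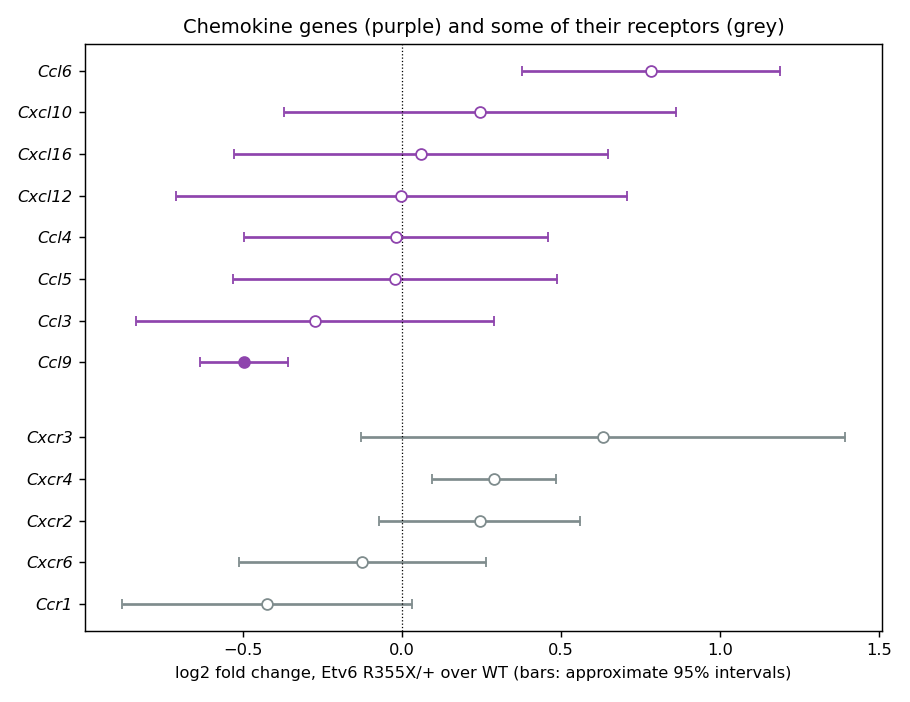
Points give the fitted log2 fold change of Etv6 R355X/+ over wild type for the 8 tested chemokine genes (purple) and 5 receptors that bind some of them (grey), with bars for approximate 95% intervals and filled points for an adjusted p under 0.05. Ccl9 at -0.50 is the filled point, Ccl6 at 0.78 is the highest of the chemokine genes, and the receptors run from -0.42 (Ccr1) to 0.63 (Cxcr3).

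Of 29 other chemokine ligands, 20 did not pass the filter, and 6 of these had no count in any library. Of the 9 tested, edgeR, DESeq2 and limma-voom each called 0, and edgeR's unadjusted p was under 0.05 for 0. Their median log2 fold change was 0.67, with 7 of 9 above 0, most of them at low counts with wide errors. Leaving out mutant replicate 2 brought this median to 0.082, and leaving out mutant replicate 1 to 0.21. Leaving out wild-type replicate 2 brought it to 0.24, and leaving out mutant replicate 3 to 0.29. It was 0.19 when at least 1 CPM in 3 libraries was asked for. The filter was applied anew each time, and these fits tested 9, 10, 10, 10 and 5 of the ligands, in that order. Ppbp, a platelet chemokine gene, measured 1.84 ± 0.610 CPM in the mutant and 1.15 ± 0.364 CPM in wild type. Cx3cl1, a membrane-bound chemokine, measured 0.462 ± 0.320 CPM in the mutant and 0.254 ± 0.0299 CPM in wild type, and Xcl1, the ligand of Xcr1, 0.509 ± 0.298 CPM in the mutant and 0.300 ± 0.175 CPM in wild type. Their standard deviations in the mutant exceeded or nearly reached the differences between the means.

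Genes of chemokine signalling and processing were well expressed, and edgeR with the count filter called 0 of them. Of 21 genes of receptor signalling and desensitization, edgeR's unadjusted p was under 0.05 for 2, both higher (median log2 fold change 0.053), against 5.83% of all tested genes. After adjustment DESeq2 called 1, limma-voom 0, and edgeR without a count filter 1. Rgs2, a GTPase-activating regulator of G proteins, measured 85.0 ± 5.32 CPM in the mutant and 66.7 ± 8.29 CPM in wild type (adjusted p = 0.208). Rac2, the blood-cell Rac GTPase, measured 278 ± 9.55 CPM in the mutant and 240 ± 12.4 CPM in wild type (adjusted p = 0.245), Rgs1 63.8 ± 9.14 CPM in the mutant and 50.02 ± 12.5 CPM in wild type, and the receptor kinase gene Grk2 81.3 ± 6.39 CPM in the mutant and 73.6 ± 1.30 CPM in wild type. The groups did not overlap for 5 of the 21, namely Rgs2, Rac2, Grk2 and Gnai2, which were higher, and Plcb3, which was lower, against 16.3% of all tested genes. Of 12 genes that process or bind chemokines, 1 was lower at an unadjusted p under 0.05, namely Prtn3, which encodes proteinase 3 (252 ± 19.4 CPM in the mutant and 350 ± 128 CPM in wild type, adjusted p = 0.429), against 4.8% of all tested genes. DESeq2 and limma-voom called 0, and edgeR without a count filter called 2. Adam17, a sheddase of Cxcl16, measured 77.7 ± 1.51 CPM in the mutant and 71.4 ± 4.19 CPM in wild type, and the protease gene Ctsg 149 ± 27.7 CPM in the mutant and 200 ± 77.4 CPM in wild type. Srgn, whose product serglycin stores chemokines in granules, measured 331 ± 7.77 CPM in the mutant and 366 ± 42.6 CPM in wild type.

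Of 28 factors known to induce or restrain chemokine expression, edgeR called 0 and limma-voom 0. DESeq2 and edgeR without a count filter called 1 each. At an unadjusted p under 0.05, 2 were higher in edgeR, against 5.83% of all tested genes. Irf1, which acts on interferon-stimulated elements, measured 49.1 ± 1.45 CPM in the mutant and 39.4 ± 2.57 CPM in wild type (adjusted p = 0.154). Nfkbia, the feedback inhibitor of NF-kappaB, measured 12.8 ± 0.643 CPM in the mutant and 9.95 ± 0.128 CPM in wild type (adjusted p = 0.277). The groups did not overlap for 4 of the 28, these 2 and Rela and Myd88, both of which were lower, against 16.3% of all tested genes. Jun, a subunit of AP-1, measured 49.6 ± 8.31 CPM in the mutant and 38.1 ± 11.5 CPM in wild type, and Zfp36l2, which destabilizes mRNAs, 385 ± 45.5 CPM in the mutant and 430 ± 37.0 CPM in wild type.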

How the data were processed

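RNA of sorted LSK cells was amplified by a single-primer isothermal method, per the labels' protocols. The table deposited by the authors holds expected counts per gene and library, not scaled for depth, made with Trim Galore 0.60, STAR 2.7 and RSEM 1.31 on mm10, per the submitters' processing notes. The table's own name calls the counts unstranded, so reads of genes overlapping on opposite strands cannot be separated, and RSEM shares out reads that fit several genes. Spike-in rows (92, at 0 throughout) were left out.

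Expected counts were rounded, filtered with filterByExpr, scaled by TMM and tested by quasi-likelihood in edgeR 4.0.16 under R 4.3.3, with genotype as the only term. Benjamini-Hochberg adjustment ran over all 20646 genes tested, and the threshold was 0.05. DESeq2 1.42.0 and limma-voom (limma 3.58.1) were alternatives, besides other scalings and filters, robust estimation, a replicate block and leaving libraries out. Each standard error was derived from a gene's fold change and F value, and intervals are a normal approximation from it. Exon lengths and positions come from GENCODE vM21 (mm10). The values of 1 receptor gene are not reported here. The scripts were tested on simulated data.

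Promoter windows come from RefSeq. The chemokine genes and the lists were chosen with earlier results of these data known. Up to 4 members of each list were named by smallest p, and 2 genes by likeness to each chemokine gene among genes averaging at least 1 CPM, with 0.5 added to CPM before the log. Genes named outside these rules are receptors of the 9 ligands, cluster neighbours, and genes and markers set beside a result, the last chosen after their values were seen. The labels do not say that replicates are separate animals, so the p-values reflect only the spread among these libraries, which may be technical. Same-numbered libraries did not deviate together (correlations -0.035, -0.066 and -0.15), so the numbers were not taken as pairs. Libraries of 1 genotype differed beyond counting noise (chi-square per gene from 11.2 to 48.4).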

Additional observations from a re-analysis of the deposited data

How the results depend on the processing

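Ccl9, Ccl6, Cxcl10 and Ccl3 kept their sign under all 16 alternatives run, though Cxcl10 and Ccl3 came close to 0, and no alternative called any chemokine gene other than Ccl9 and Ccl6. The number of chemokine genes called was 2 without a count filter and 2 with DESeq2, which both added Ccl6 (log2 fold change 0.79, adjusted p = 0.0450, and 0.78, adjusted p = 0.0336). The number was 0 with the replicate number as a block, where Ccl9 had a log2 fold change of -0.50 (adjusted p = 0.0765). Same-numbered libraries did not deviate together, so the replicate numbers were not taken as pairs. With so few libraries, that check cannot exclude a shared batch. Without a count filter edgeR also called 2 receptors, 1 signalling gene, 2 processing genes and 1 inducer. Over all genes, 527 were called without a count filter, 329 with DESeq2 and 32 with the replicate block. With 1 library left out at a time, 16 to 67 genes and 0 to 1 chemokine genes were called, and the log2 fold change ran from -0.54 to -0.47 for Ccl9, from 0.56 to 0.91 for Ccl6, from -0.57 to -0.059 for Ccl3, from 0.014 to 0.54 for Cxcl10, from -0.26 to 0.15 for Ccl4, from -0.25 to 0.195 for Ccl5, from -0.29 to 0.61 for Cxcl12 and from -0.069 to 0.30 for Cxcl16. Ccl4 also turned positive with limma-voom (0.028) and the replicate block (0.022), as did Cxcl12 (0.051 and 0.13). Cxcl16 was at -0.19 when mutant replicate 1 and wild-type replicate 3 were both left out, an alternative added after the data were seen. None of these 4 genes was called in any setting, so their sign is not a result, and the cause of the other differences was not tested. Over all alternatives the median log2 fold change of the receptor list ran from -0.038 to 0.37. That of the other ligands ran from 0.082 to 0.67. The filter was applied anew in each fit, so the number of receptors and other ligands behind these medians varied. The medians of the processing list (-0.097 to 0.085) and the inducer list (-0.0080 to 0.066) also changed sign. At 0 to 10 counts per library Cxcl2 is limited by depth, and without a filter its log2 fold change was 0.97 (unadjusted p = 0.424).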
